A study of Mus musculus with 7 samples.

Results

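Splicing at rest was described in mouse cortical neurons that had not been depolarized. The members were splicing events listed once by coordinates in the tables of both replicates and covered by at least 20 reads in each of the 2 control libraries, which held for 8942 of 11814 events (75.7%), in 4884 genes. They comprised 5884 cassette exons, which are taken or passed over as a whole, 462 pairs of mutually exclusive exons, 1073 retained introns, 967 alternative 3′ splice sites and 556 alternative 5′ splice sites. The neurons came from wild-type ICR embryos of day 16 and were grown to day 11 in culture. At that point both control cultures were given, for 10 min, a mix of which 30% was a buffer with 170 mM NaCl and the rest was old and fresh medium. The mix was then washed out and RNA was taken 24 h later, so "unstimulated" here includes a change of medium and a wash. The study also exposed neurons to KCl and profiled a histone mark in hippocampus, and neither was used. The labels do not say whether the 2 control libraries came from separate cultures, so the spread between them may be technical.

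Most mammalian genes are copied into a precursor RNA whose introns are removed by the spliceosome, and alternative splicing lets one gene yield several messages by choosing among exons and splice sites. Brain is known for an unusually rich use of this choice. RNA-binding proteins of the Ptbp, Rbfox, Nova, Celf and Srrm families steer it as neurons mature, and very short exons, called microexons, are a hallmark of neuronal messages. Many of the proteins so diversified sit at synapses, in ion channels and in the cytoskeleton.

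The unit of measure was the inclusion read share, which is the reads of the inclusion form in percent of the reads of both forms. It is not a percent spliced in, because the sources used here do not give the lengths over which each form collects reads. Among cassette exons above 90% in both libraries, the median number of inclusion reads was 35 and 61 (replicates 1 and 2) in the 13 of 3 to 27 bases and 206 and 285 in the 647 of over 200 bases. Shares of events of different types or lengths are therefore set side by side only as read shares. An event was called mixed when its share lay between 10% and 90% in both libraries, mostly included when it was above 90% in both, and mostly skipped when it was below 10% in both. The 2 libraries were compared at each event by Fisher's exact test, two-sided, with p adjusted over all 8942 events, which called 4.89% of events different at a threshold of 0.05.

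Counts over all listed events summed to 3566066 in replicate 1 and 5385345 in replicate 2, of which 59.7% and 51.2% fell in the events used. A read can count in more than 1 event, so these sums are not library sizes. The marker scale below also rests on sums of this kind. Neuronal identity was checked on markers with an event in both tables, taking the reads of the best-covered event of each gene. The 8 of 12 neuron markers so measured, among them Stmn2, Mapt and Map2, summed to 5153 and 5261 reads per 1000000 reads of shared events in replicates 1 and 2. Most of this sum came from Stmn2, with 3510 and 3010, beside 507 and 606 for Mapt and 234 and 474 for Map2. Only 2 of 9 markers of excitatory neurons (Cux1 and Cux2) and 2 of 9 of inhibitory neurons (Gad1 and Lhx6) had an event, so subtypes were not resolved. Markers of other cells were also detected. The 6 of 11 astrocyte markers summed to 1995 and 1774 reads on that scale, most of it from Aldoc. Sums were 85.1 and 102 for 5 of 12 oligodendrocyte markers, 286 and 342 for 3 of 10 vascular and mesenchymal markers, 132 and 259 for 4 of 8 progenitor markers, and 13.9 and 58.3 for Cd68, the 1 of 8 microglial markers measured. Tagln gave most of the vascular and mesenchymal sum, 269 and 313. A read share averages over all these cells, and their part in any share below was not tested.

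At rest, most cassette exons were kept in nearly all reads, and the other kinds of event were more divided. The median share of cassette exons was 97.1% in replicate 1 and 96.9% in replicate 2 (mean 97.0% ± 0.10, SD, n = 2). Of the 5884 exons, 62.7% were mostly included, 19.8% were mixed and 8.87% were mostly skipped. Mutually exclusive pairs had medians of 49.7% and 47.6%, and 71.0% of pairs were mixed. Their median depends on which exon of a pair counts as inclusion, while the mixed class does not. Pair shares moved with exon length, as given below, and were not corrected for it. Alternative 3′ splice sites had medians of 76.5% and 73.3%, and 42.6% were mixed. Alternative 5′ splice sites had medians of 67.3% and 67.4%, and 38.1% were mixed. Which form the authors counted as inclusion at an alternative splice site is not stated in the labels or headers. Retained introns had the lowest medians, 25% and 31.9%, with 48.9% mixed and 20.8% mostly skipped. Across all types 48.6% of events were mostly included, 29.5% were mixed, 11.6% were mostly skipped and 10.2% fell in different classes in the 2 libraries. Cassette exons were 65.8% of all events but 44.1% of the mixed ones, and mutually exclusive exons were 5.17% of all events and 12.4% of the mixed ones.

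**Figure D1:**
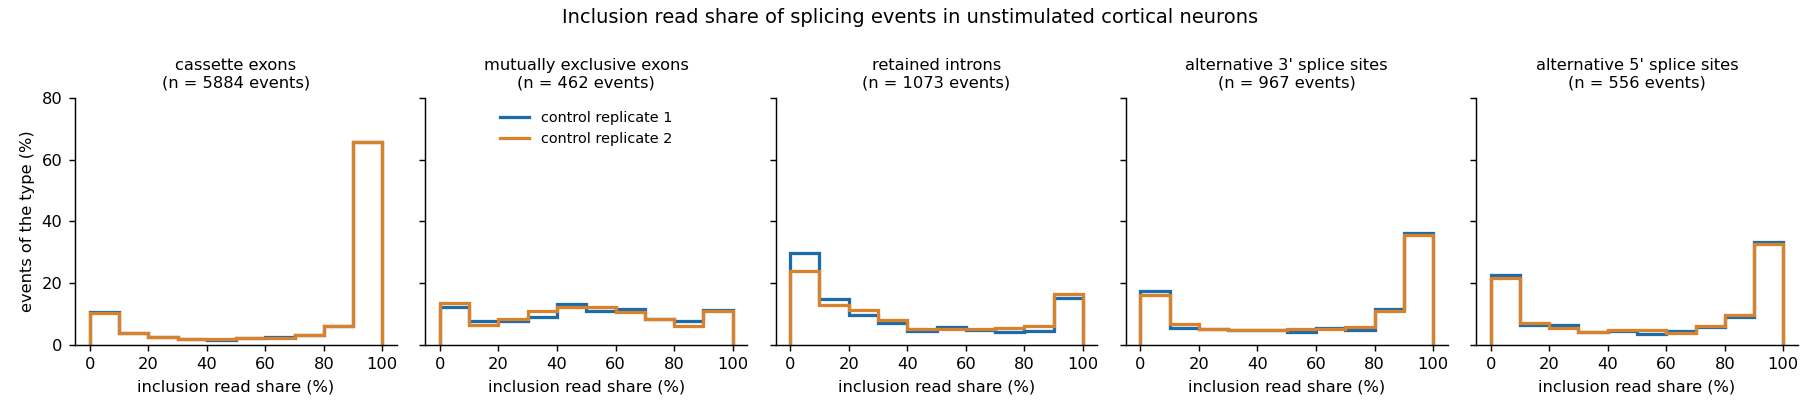
Distribution of the inclusion read share (%) of the events of each type in control replicates 1 and 2. Cassette exons pile up near 100%, with medians of 97.1% and 96.9%, whereas mutually exclusive exons spread over the whole range around medians of 49.7% and 47.6%.

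Mixed splicing was widespread, and most genes with a mixed event had only 1 among their measured events. The 8942 events lay in 4884 genes, and a gene with 1 event measured could show no more than 1. Of 4884 genes, 1947 (39.9%) had a mixed event, 469 had at least 2 and 14 had at least 5. The highest number was in Dlgap4, a scaffold protein of the postsynaptic density, with 7 mixed events of 9 measured. Ncor1, a nuclear receptor corepressor, had 6 of 10. Ank2, which builds the ankyrin scaffold under the axonal membrane, and Clasp1, which stabilises microtubule plus ends, each had 5 of 9. Nrxn2, a presynaptic adhesion receptor, had 5 of 8. Events of one gene can share reads and are not independent of each other.

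Exon length separated the cassette exons. Of 117 exons of 3 to 27 bases, 53.0% were mixed and 23.1% mostly skipped, and the median share was 34.5% in replicate 1 and 33.3% in replicate 2. Exons of 28 to 60 bases had medians of 68.2% and 65.1% with 35.8% mixed, and those of 61 to 120 bases had medians of 96.5% and 96.0% with 21.3% mixed. Above that the medians were 98.2% in both libraries at over 120 up to 200 bases and 98.6% and 98.7% at over 200 bases, with 14.1% and 15.2% mixed. Over all cassette exons the mixed share was 19.8%. These shares are not corrected for exon length. In a correction, inclusion reads were divided by 1 plus the length in units of 100 bases. It was added after inclusion reads were seen to differ with length. The microexon medians were then 30.9% and 28.2%, and those at over 120 up to 200 bases were 95.7% and 95.6%. At over 200 bases they were 93.9% and 94.2%, lower than in the class before. From the shortest class to the longest, 53.0%, 36.4%, 23.9%, 18.6% and 22.2% of exons were then mixed. The microexon median also depended on the read minimum: with at least 50 reads in each library, 51 exons remained with medians of 16.1% and 15.4%.

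The mixed exons were also set apart by reading frame, which the choice of events did not use. A cassette exon whose length is a multiple of 3 can be skipped without shifting the frame downstream. Of the 2714 exons with such a length, 26.0% were mixed, against 14.5% of the 3170 others. Seen from the classes, a multiple of 3 was found in 60.6% of the 1165 mixed exons, in 41.1% of the 3687 mostly included exons, in 49.8% of the 522 mostly skipped ones and in 46.1% of all. In microexons it was found in 55 of 62 mixed exons (88.7%) and in 27 of 27 mostly skipped ones, but in 8 of 13 of those mostly included. Over all 117 microexons it was 84.6%, so the mixed ones lay close to their length class. Among mixed exons the figure was 69.4% at 28 to 60 bases, 58.8% at 61 to 120, 52.4% at over 120 up to 200 and 59.3% at over 200 bases. Over all exons of these 4 length classes it was 57.1%, 45.8%, 42.5% and 43.9%. Mixed exons had fewer reads, with medians of 58 and 84 per exon against 134 and 174 in mostly included ones, and the part of depth in these figures was not tested. With at least 50 reads in each library the multiple-of-3 share of mixed exons was 63.3%.

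**Figure D2:**
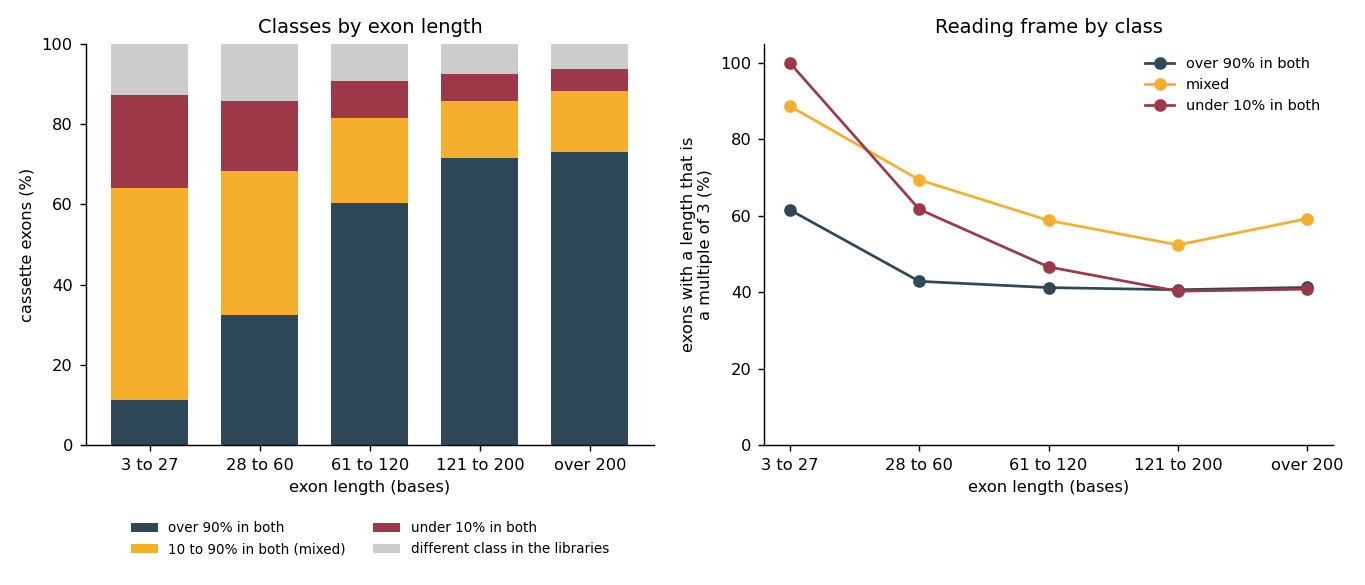
Left, percent of cassette exons of each length class (bases) that were mostly included, mixed, mostly skipped or in different classes in the 2 libraries; right, percent of the exons of each class whose length is a multiple of 3. Mixed exons fall from 53.0% at 3 to 27 bases to 14.1% at over 120 up to 200 bases, and the multiple-of-3 share of mixed exons lies above that of mostly included exons in every length class.

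Position in the gene was a further difference among the 4625 cassette exons that could be placed within a gene model. Of mostly skipped exons, 24.3% lay in the first 20% of the gene, compared with 16.3% of mixed exons, 11.5% of mostly included exons and 14.1% of all. In the last 20% of the gene lay 29.0% of mixed exons, 24.1% of mostly included exons and 21.9% of mostly skipped exons. Median lengths were 131 bases for mostly included, 100 for mixed and 97 for mostly skipped exons. These are descriptions, with no test, since exons are not replicates of a condition.

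Among microexons, the best-covered mixed one was a 27-base exon of Nnat (chromosome 2, 157561213 to 157561239, mm10), an imprinted gene of developing brain, with 959 inclusion and 2491 skipping reads in replicate 1 and 1206 and 2693 in replicate 2. Its shares were 27.8% and 30.9%. A 27-base exon of Kif1a, a kinesin that carries synaptic vesicle precursors, had shares of 19.4% and 18.8%. A 26-base exon of Mrpl24, a mitochondrial ribosomal protein, had 82.0% and 74.5%. Nrxn2, a neurexin that binds neuroligins across the synaptic cleft, used a 24-base exon (chromosome 19, 6463824 to 6463847) in a minority of reads, 32.7% and 23.3%. In all of these the difference between the libraries did not pass Fisher's exact test. A 26-base exon of Hnrnpc, an RNA-binding protein of the nucleus, differed, at 28.4% in replicate 1 and 58.7% in replicate 2 (Fisher's exact test, adjusted p = 4.78e-17). Its length is not a multiple of 3.

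Other microexons, chosen after their values were seen, show how far near-equal use and near-complete skipping both occur. A 21-base exon of Eif4g1, a scaffold of translation initiation, had 50.9% and 50.4%, and a 24-base exon of Flna, an actin crosslinker, had 73.5% and 73.6%. A 24-base exon of Ank2 had 60.5% and 61.9%. In contrast, a 12-base exon of Macf1, a linker of microtubules and actin, had 3 inclusion reads in each library beside 335 and 734 skipping reads, and a 12-base exon of Cadps, which primes dense-core vesicles, had 2.55% and 1.32%. Mef2c, a transcription factor of activity-dependent gene expression, kept its 24-base exon in 98.2% and 95.5% of reads. Dctn1, a dynactin subunit, showed the limit of such values: its 15-base exon had 65.8% in replicate 1 and 34.6% in replicate 2.

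Adhesion molecules of the synapse were often divided. Of 103 events in 30 genes, 55.3% were mixed, beside 29.5% over all events, and of their 84 cassette exons 51.2% were mixed, beside 19.8% over all cassette exons. With the best-covered event of each gene only, 43.3% were mixed, beside 25.6% over all genes counted in that way. Chromatin and transcription genes (47.1%) and splicing regulators (45.1%) were higher by the same count. The 90-base exon at splice site 4 of Nrxn2, known to set which partners the receptor binds, was used in 36.0% and 42.4% of reads (chromosome 19, 6513716 to 6513805). The 2 libraries differed there, with 503 and 895 inclusion and skipping reads against 608 and 826 (Fisher's exact test, adjusted p = 0.0149). Ncam1, the neural cell adhesion molecule, included an 801-base exon, which lengthens its cytoplasmic tail, in 75.5% of reads in replicate 1 and 85.2% in replicate 2 (chromosome 9, 49506853 to 49507653, Fisher's exact test, adjusted p = 6.18e-18). Cadm3, a nectin-like adhesion protein, had 45.6% and 41.6% at a 102-base exon.

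Among glutamate and GABA receptors and postsynaptic scaffolds, 41.4% of 70 events were mixed, beside 29.5% over all events. Their cassette exons were mixed in 34.0%, beside 19.8% over all cassette exons. AMPA receptor subunits carry mutually exclusive flip and flop exons, which set how fast the channel desensitises. Gria1 had 194 inclusion and 387 skipping reads in replicate 1 and 165 and 297 in replicate 2, a share of 33.4% and 35.7% (34.6% ± 1.64, SD, n = 2). Gria2 had 16.7% and 16.4% (16.5% ± 0.22), with 135 and 674 reads against 240 and 1225. Gria3 had 9.35% and 1.39%, from only 10 and 3 inclusion reads, and its libraries differed (Fisher's exact test, adjusted p = 0.0296). In this order the values of Gria1 and Gria2 did not overlap, and those of Gria2 and Gria3 did not either, although the exon counted as inclusion is known by strand only for Gria2.

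Which exon of an exclusive pair the inclusion form stands for was read from lengths. Taking the exon of lower coordinate as the inclusion form, the longer exon had more reads in 37 of 44 pairs on the plus strand whose lengths differed over 2-fold, but in only 8 of 51 such pairs on the minus strand. The Pearson correlation across pairs between the log2 length ratio of the exons and the log2 ratio of the forms was 0.49 on the plus strand (195 pairs) and -0.54 on the minus strand (169 pairs). The inclusion form thus tracked the exon that comes first in transcription order. By that reading, Gria2, on the minus strand, used its upstream exon (chromosome 3, 80691320 to 80691434) in the minority of reads.

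Other cassette exons of this list were close to one form. Grin1, the obligatory NMDA receptor subunit, has a 63-base exon for an extracellular loop, which was included in 9 of 137 reads (6.57%) in replicate 1 and 16 of 419 (3.82%) in replicate 2. The scaffold Dlg4, known as PSD-95, was mostly included at both cassette exons measured, with 96.8% and 99.4% at 66 bases and 98.8% and 97.7% at 110 bases. Camk2d, a calcium- and calmodulin-dependent kinase of the postsynapse, was divided at an 89-base exon, with 39.0% and 33.0%. None of these 4 differences passed Fisher's exact test.

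Presynaptic release and endocytosis genes had 36.4% of 77 events mixed, beside 29.5% over all events. Cassette exons of these genes were mixed in 30.2%, beside 19.8% over all cassette exons. Snap25, the plasma membrane SNARE of synaptic vesicle fusion, has a pair of exclusive exons that change as brain matures. Its pair on chromosome 2 (136769743 to 136769860 and 136770057 to 136770174) had 467 inclusion and 372 skipping reads in replicate 1, a share of 55.7%, and 762 and 236 in replicate 2, a share of 76.4%. The libraries differed (Fisher's exact test, adjusted p = 3.81e-18), so its resting share is uncertain, and these values do not bound it. The clathrin light chains have a 54-base exon typical of neurons. Clta used it in 45.8% and 39.5% of reads, and Cltb in 29.7% and 19.9%, where the libraries differed (Fisher's exact test, adjusted p = 0.00239). Dnm1, the GTPase that pinches off vesicles, divided its exclusive exons at 57.2% and 55.03%, and Epn1, an endocytic adaptor, at 34.4% and 31.8%. By the strand rule above, the Dnm1 inclusion exon is the one at 32334682 to 32334820 on chromosome 2.

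**Figure D3:**
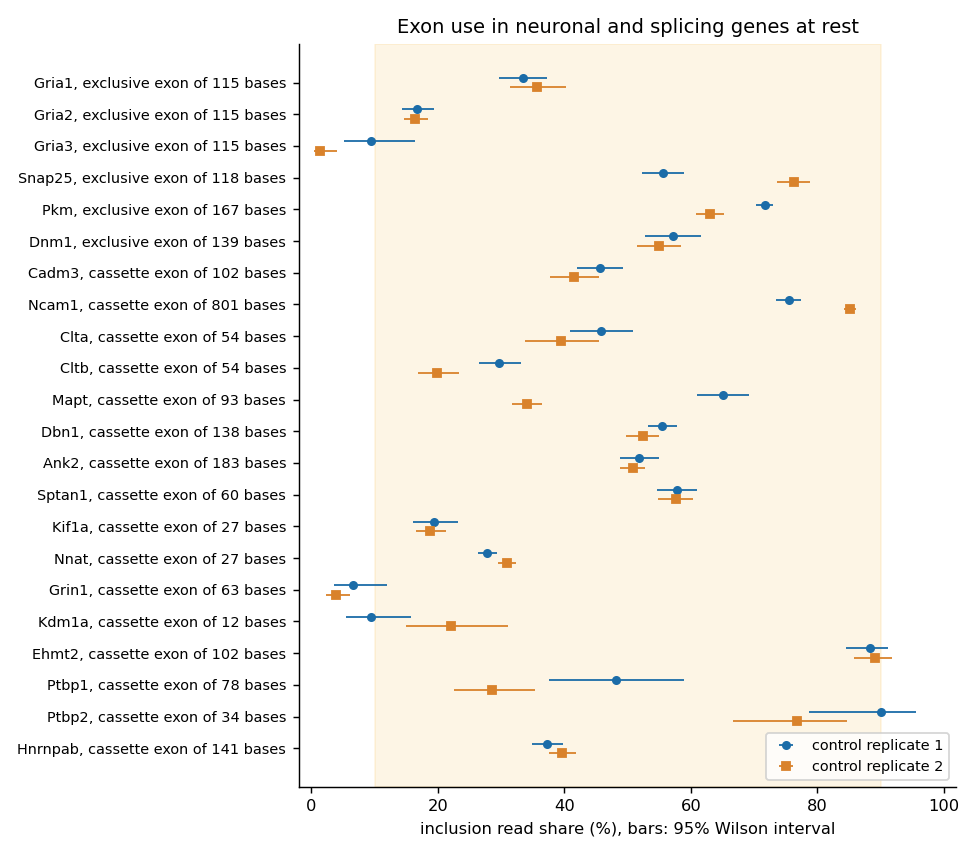
Inclusion read share (%) of named events in control replicates 1 and 2, with 95% Wilson intervals of the counts as bars. Gria2, Sptan1 and Ank2 give nearly the same value in both libraries, whereas Snap25 moves from 55.7% to 76.4% and Mapt from 65.2% to 34.1%; the shaded range of 10% to 90% is that of mixed events.

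Ion channels and pumps had 40.0% of 50 events mixed, beside 29.5% over all events. Counting cassette exons only, 34.4% were mixed, beside 19.8% over all cassette exons. In the plasma membrane calcium pumps, whose tails bind calmodulin, Atp2b2 used a 172-base exon in 14.2% and 18.6% of reads, Atp2b3 a 154-base exon in 62.2% and 76.9%, and Atp2b4 a 181-base exon in 87.6% and 80.5%. None of the 3 differences between libraries passed Fisher's exact test. Scn2a1, an axonal sodium channel with an exclusive pair for a neonatal or an adult form, had 44.8% and 67.7%, from 105 and 223 reads, which differed (Fisher's exact test, adjusted p = 0.00374).

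In cytoskeleton and axonal transport genes, 41.7% of 163 events were mixed, beside 29.5% over all events. Their cassette exons were mixed in 41.1%, beside 19.8% over all cassette exons. Dbn1, the actin-binding protein drebrin, included the 138-base exon of its neuronal form in 55.5% and 52.4% of reads. Sptan1, a spectrin, included a 60-base exon in 57.9% and 57.6%, and Ank2 a 183-base exon (chromosome 3, 126928665 to 126928847) in 51.9% and 50.8%, from 987 and 2331 reads. Klc1, a kinesin light chain, had 75.3% and 72.6% at an alternative 3′ splice site. None of these 4 differences between libraries passed Fisher's exact test.

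Tau, the microtubule-binding product of Mapt, was close to one form at most of the exons measured. A 93-base exon on chromosome 11 (104318157 to 104318249) codes for a microtubule-binding repeat and divides tau into forms with fewer or more repeats. It had 333 inclusion and 178 skipping reads in replicate 1 (65.2%) and 522 and 1011 in replicate 2 (34.1%), and the libraries differed (Fisher's exact test, adjusted p = 1.79e-31). In contrast, a 66-base exon had 99.3% and 100%, a 54-base exon 0.18% and 0.12%, and an 87-base exon 0 of 137 and 1 of 492 reads. A 198-base exon had 8.45% and 11.97%. Map4, another microtubule-associated protein, had 65.0% and 77.9% at a 222-base exon and also differed between libraries (Fisher's exact test, adjusted p = 7.82e-08).

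The regulators of splicing were themselves divided in 45.1% of 142 events, beside 29.5% over all events. Cassette exons of this list were mixed in 37.6%, beside 19.8% over all cassette exons. Ptbp1, the repressor of neuronal exons in progenitor cells, included a 78-base exon in 48.1% and 28.6% of reads, from 81 and 189 reads, and its 34-base exon in 35 of 35 and 125 of 126. Ptbp2, which replaces Ptbp1 in neurons, included a 34-base exon that keeps its frame open in 45 of 50 reads and 63 of 82 (76.8%). Neither Ptbp1 nor Ptbp2 passed Fisher's exact test at these exons. Hnrnpab, a nuclear RNA-binding protein, had 37.3% and 39.6% at a 141-base exon. Srsf5, a serine- and arginine-rich factor, had 76.0% and 75.8% at an alternative 5′ splice site. Hnrnpa1 differed, at 40.6% and 21.5% of a 159-base exon (Fisher's exact test, adjusted p = 5.24e-27). Hnrnpa1 has many processed copies in the genome, so reads counted for it are uncertain. Tra2a, which promotes exon inclusion, had 42.6% and 83.6% at a 306-base exon (Fisher's exact test, adjusted p = 4.49e-21).

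Chromatin and transcription genes had 40.5% of 111 events mixed, and signalling genes 42.1% of 107, beside 29.5% over all events. Among cassette exons alone the values were 24.6% and 31.6%, beside 19.8% over all cassette exons. Ehmt2, the histone methyltransferase G9a, included a 102-base exon on chromosome 17 (34905610 to 34905711) in 324 of 367 reads in replicate 1 and 362 of 406 in replicate 2, shares of 88.3% and 89.2%. Kdm1a, the histone demethylase LSD1, has a neuron-specific exon of 12 bases, which had 9.38% and 22.0% from 128 and 100 reads, and a 60-base exon with 38.6% and 43.5%. The Mef2c alternative 3′ splice site had 61.02% and 72.5% (Fisher's exact test, adjusted p = 0.00289), and all 3 Mef2c cassette exons measured were mostly included. Among signalling genes, Fyn, a Src-family kinase, had 26.4% and 48.9% at a mutually exclusive pair (Fisher's exact test, adjusted p = 9.76e-12). App, the amyloid precursor, kept its 54-base exon in 98.9% and 99.04%, whereas Aplp2, its paralog, was divided at a 36-base exon, with 63.8% and 66.4%. In Agrn, which codes for agrin, an organiser of the neuromuscular synapse, an exon of 24 bases had 4 inclusion reads of 198 and 2 of 172. A longer listed exon of 793 bases that ends at the same base had 32.2% and 48.8%. Both entries had the same skipping reads, 194 and 170, and neither share is corrected for length. The long agrin exon differed between the libraries (Fisher's exact test, adjusted p = 0.00132). The share of mixed signalling events fell to 27.03% when only the best-covered event of each gene was taken. Over all genes counted in that way it was 25.6%.

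Glycolysis and housekeeping genes stood at the other end, with 3 of 31 events mixed (9.68%), beside 29.5% over all events. Their depth was far greater (median 1558 and 1071 reads per event). Pkm, pyruvate kinase, was one of the 3. Its exclusive pair on chromosome 9 (59675029 to 59675195 and 59675568 to 59675734) had 2912 inclusion and 1151 skipping reads in replicate 1, a share of 71.7%, and 1172 and 688 in replicate 2, a share of 63.0%. The libraries differed (Fisher's exact test, adjusted p = 4.92e-09). Pkm is on the plus strand, so by the rule above inclusion is the upstream exon, the one used in adult muscle and brain. Either Pkm exon listed as a cassette exon had 99.7% to 100%, since 1 of the pair is nearly always present. With at least 10 reads in each library the mixed share of the list was 15.2%, and with the best-covered event of each gene 15.8%. Over all genes these settings gave 31.6% and 25.6%.

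**Figure D4:**
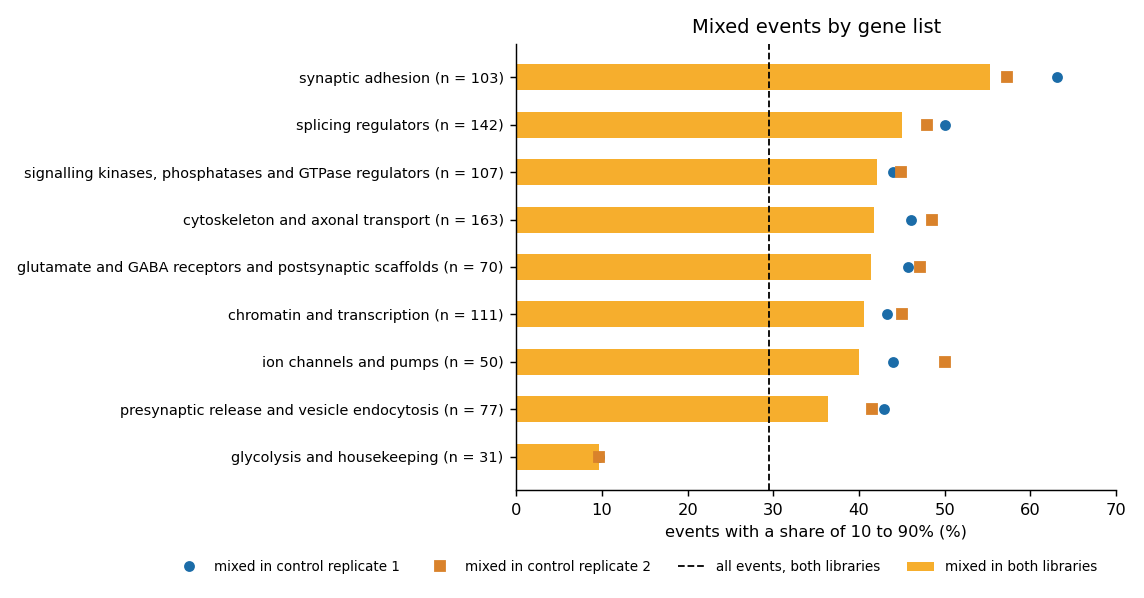
Percent of events mixed in both libraries (bars) for each gene list, with the percent mixed in replicate 1 alone and replicate 2 alone (points) and the value over all events (dashed line, 29.5%). Synaptic adhesion genes are highest at 55.3%, and glycolysis and housekeeping genes, at 9.68%, are the only list below the line.

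The median share was 91.4% in replicate 1 and 91.3% in replicate 2 over all events. It was 63.7% and 63.3% for synaptic adhesion, 66.7% and 67.6% for the cytoskeleton, 73.8% and 77.4% for splicing regulators and 75.1% and 70.3% for receptors and scaffolds. It lay between 79.5% and 88.1% for presynaptic, channel, chromatin and signalling genes, and glycolysis and housekeeping genes had 71.7% and 63.0%, with 14 events mostly included and 14 mostly skipped. A length that is a multiple of 3, found in 60.6% of all mixed cassette exons, was found in 37 of 43 of those in synaptic adhesion genes, 45 of 51 in the cytoskeleton, 14 of 16 in presynaptic genes and 20 of 24 in signalling genes. It was found in 22 of 32 in splicing regulators, 10 of 16 in receptors and scaffolds, 9 of 15 in chromatin genes, 6 of 11 in ion channels and pumps and 1 of 2 in glycolysis and housekeeping genes. The lists differ from the whole set in depth and in event types, whose part in these shares was not tested. Mixed events became rarer with depth: they were 39.0% of events with 20 to 49 reads in the shallower library, 31.4% at 50 to 99, 24.7% at 100 to under 300 and 15.0% at 300 or more. Events just inside the minimum (20 to 24 reads, 607 events) had medians of 68.2% and 70.1%, and those just outside it (15 to 19 reads, 654 events) had 72.1% and 72.2%.

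The 5 best-covered mostly skipped events were picked by read number, so abundant transcripts among them follow from the choice. Of events with 300 or more reads in the shallower library 10.2% were mostly skipped, against 11.6% of all events. An exon of 63 bases in Actb, cytoplasmic beta-actin, had 7 inclusion reads beside 9295 skipping reads in replicate 1 and 5 beside 11572 in replicate 2. In Actg1, gamma-actin, a 45-base exon had 0.54% and 1.23%, and an intron of Calm2, a calmodulin gene, 0.17% and 0.44%. Of the listed retained introns of Eef1a1, a translation elongation factor, 1 had 12 inclusion reads of 12471 and 11 of 12677. Another, whose listed span overlaps the first, had 6 of 6820 and 18 of 10222. The Actg1 difference passed Fisher's exact test (adjusted p = 4.32e-06) at a size of 0.69 points. All 4 genes have close copies elsewhere in the genome, among which the authors' counting could have split reads.

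Retained introns moved with their listed span. The medians in replicates 1 and 2 were 8.70% and 9.38% for the 195 events of up to 400 bases, 16.7% and 21.1% above that up to 700, 36.2% and 43.6% up to 1400, and 56.9% and 69.3% for the 268 longer ones. Listed spans can hold exon bases beside the intron, so they are not intron lengths. In Ehmt2 the span starts at the first base of the 102-base cassette exon and contains that exon. For 103 retained introns the listed start was the start of a cassette exon. Whether exon bases play a part in these medians was not tested. The share is not corrected for span. The labels do not state that counting used strand, so reads of an overlapping antisense transcript cannot be told apart. Among well-covered mixed introns, that of Ddx5, an RNA helicase, had 77.2% and 63.6%. Cdkn1b, a cell-cycle inhibitor, had 61.3% and 84.3%. Both differed between the libraries (Fisher's exact test, adjusted p = 1.89e-21 and 2.24e-30). Rundc3a, a neuronal protein of dense-core vesicles, had 12.6% and 11.2% and did not pass the test. The spans of Ywhag and Gpm6b, chosen after their values were seen, had almost only inclusion reads (22792 of them beside 24 skipping reads and 30778 beside 12 in Ywhag, shares of 98.4% and 98.6% in Gpm6b).

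Over all events the 2 control libraries lay close together. The Pearson correlation of their shares across 8942 events was 0.974 and Spearman's rho 0.914, across events that share libraries and, in part, reads. Among mixed events the Pearson correlation was lower, 0.857, and 36.5% of them differed by over 10 points, against 15.2% of all events. For mutually exclusive pairs these values were 0.883 and 38.3%. Fisher's exact test, two-sided and adjusted over all events, called 437 events different between the libraries, 4.89%, of which 274 (3.06%) were higher in replicate 2 and 163 (1.82%) lower. It compares 2 libraries and not 2 conditions. By type, 2.99% of cassette exons, 2.17% of alternative 3′ sites and 2.52% of alternative 5′ sites were called, but 24.0% of mutually exclusive pairs (111 of 462) and 10.7% of retained introns (115 of 1073). Among the gene lists the called percentage was 12.3% in cytoskeleton genes and 12.0% in splicing regulators, and between 4.29% and 10% in the others. Of the 115 introns, 99 had the higher share in replicate 2, and of all 1073 introns 698 were higher and 363 lower there.

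**Figure D5:**
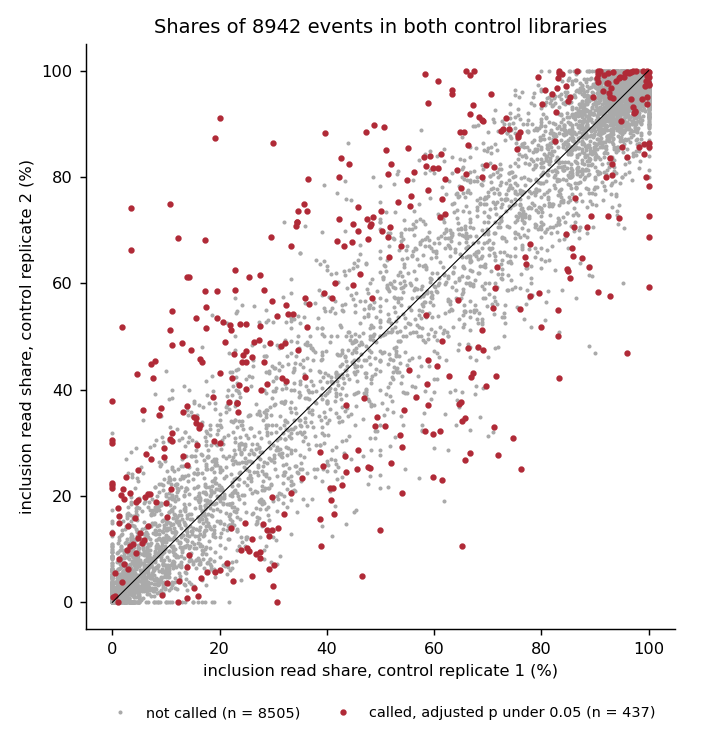
Inclusion read share (%) of each of the 8942 events in control replicate 1 (horizontal) against control replicate 2 (vertical), with events past Fisher's exact test marked. Most events lie near the diagonal (Pearson r 0.974 over all events, 0.857 among mixed ones). The 437 marked events include 99 retained introns that were higher in replicate 2.

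The widest differences between the libraries, among called events with at least 100 reads in both, fell in 2700029M09Rik (74.8% and 31.0%), Mapkap1 (46.5% and 4.92%), Tra2a (42.6% and 83.6%), Spred3 (48.7% and 89.8%), Hmga1 (29.7% and 68.7%), Ldah (61.5% and 23.0%), Snf8 (34.2% and 70.8%) and Sugp2 (58.8% and 93.9%). These 8 spanned 3 exclusive pairs, 2 cassette exons, 2 retained introns and 1 alternative 5′ site. Their shares were chosen for the difference and are a description. Deeper events were called more often, 10.6% at 300 reads or more against 2.18% at 20 to 49 reads, while their median difference was smaller, 0.37 points against 4.75. The choice in Mapt, Snap25 and Pkm is therefore less well fixed by these libraries than that in Gria2, Sptan1 or Ank2, whose shares moved by 0.31, 0.22 and 1.08 points. Wilson intervals at 95% had a median width of 2.71 points to either side among the 138 named events and reached 17.1, and they cover counting error only.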

How the data were processed

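For every splicing event of 5 types the authors deposited 2 counts per library, reads of the inclusion form and reads of the skipping form, per the file headers. The submitters' processing notes list TopHat2, CASAVA 1.7, BWA 0.7.12 and MACS2 with build mm10 but give no roles. Which program counted the events, on which annotation and after which read filters, is not given in the sources used here. The control columns of the 2 control tables were used, and 2 columns of per-sample values (KCl) in one of them were not.

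Starts were converted to count from 1. Flanking exons are not given, so entries with equal coordinates are ambiguous, and the 2634 and 3120 such entries of 19447 and 22703 were left out. Of events in genes with 1 symbol in the RefSeq table of GRCm38.p6, 8534 of 8561 lay inside the gene. Strand was known for 7076 events.

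Inclusion and skipping counts of replicate 1 were compared with those of replicate 2 by Fisher's exact test, two-sided, per event, with Benjamini-Hochberg adjustment over all 8942 events and a threshold of 0.05. Intervals are Wilson intervals at 95%. The test was tried on simulated data, and the summaries were not. A planned look at splice-site sequence was not run, as no genome was used here.

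Named events are the 6 best-covered mixed ones of each type and of microexons, the 5 best-covered of each list, the 8 widest called differences with at least 100 reads in both, the 5 best-covered mostly skipped, and all events of a set of textbook genes, at most 1 event a gene except among the mostly skipped and the textbook genes. Src, one of these, had no event used. Some items that the rule selects are not reported here. The members, the 9 lists (396 genes, 298 with an event) and this rule were chosen with earlier results of these data known. Alternatives were minimums of 10 and 50 reads, shared coordinates summed, inclusion reads halved, a mixed range of 5% to 95%, a chi-square test, 1 event per gene, and each library alone. A length correction and the removal of cassette exons that are also in exclusive pairs were added after the data were seen. Scripts ran under Python 3.11.15 with scipy 1.17.1 for tests, pandas 2.3.3 and numpy 2.4.6 for tables and matplotlib 3.10.9 for plots.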

Additional observations from a re-analysis of the deposited data

How the results depend on the processing

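Events called different between the libraries by Fisher's exact test numbered 437, with 441 at a minimum of 10 reads, 401 at 50, 631 with shared coordinates summed, 499 by a chi-square test and 349 with a difference of at least 10 points. The median share of cassette exons (97.0%) moved by more than its SD to 95.9% with a minimum of 10 reads, 98.4% with 50, 96.7% with shared coordinates summed, 98.1% with the best-covered event of each gene, 94.2% with inclusion reads halved and 93.2% with the length correction. Mutually exclusive exons (48.7%) moved to 50.4% with 50 reads, and retained introns (28.5%) to 34.5% with the best-covered event. Alternative 3′ sites (74.9%) moved to 72.5% and 81.7% with 10 and 50 reads. Alternative 5′ sites (67.3%) moved to 59.6% and 74.99% with 10 and 50 reads, 67.7% with coordinates summed and 69.4% with the best-covered event. With mixed set at 5% to 95%, mixed exons rose to 21.4% (from 14.1%) at over 120 up to 200 bases and to 22.6% (from 14.5%) at lengths that are no multiple of 3. The best-covered event gave 27.03% in place of 42.1% for signalling genes, beside 25.6% over all genes. For glycolysis and housekeeping genes it gave 15.8% in place of 9.68%, and a minimum of 10 reads gave 15.2%. The cause of these shifts was not tested. Other percentages of mixed events stayed within 1.5 times, which was the limit used for them. Each library alone moved no mixed percentage past that limit. For the medians this setting cannot decide, because each of 2 libraries always lies within the SD around their mean. The multiple-of-3 share ranged from 56.9% to 63.3% in mixed and from 39.8% to 41.4% in mostly included exons over the alternatives run.

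No paired analysis was possible because only 1 group, the controls, was described. With 2 libraries, no spread among cultures can be estimated, and a share from 20 reads is known only roughly.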

Other observations

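Ank2, chosen after its values were seen, has several cassette exons of 99 bases, a length that keeps the reading frame, and they did not share one level. Those starting at 127029475 and 127029219 on chromosome 3 (mm10) had 99.1% and 94.1% in replicate 1 and 100% and 94.2% in replicate 2. The one at 127012673 had 77.0% and 72.4%, that at 126963383 had 72.4% and 74.3%, and that at 127248134 had 70.2% and 65.4%. The first pair was mostly included and the other 3 were mixed in both libraries. Their reads numbered from 51 to 561 per library.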
